A study of Saccharomyces cerevisiae with 40 samples.

Results

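The eukaryotic proteasome is made of a 20S core particle and a 19S regulatory particle, and in yeast the genes for both are switched on together by a single transcription factor, Rpn4. The 33 genes followed here were 32 genes of these particles and RPN4 itself (YDL020C). They were chosen by their open reading frame identifiers. No measured value entered this rule, though earlier results of these data were known. They made up 33 of the 6600 genes with a row in all 4 count tables of the series. The 32 subunit genes were divided by their place in the complex. The 20S core had 14 genes, namely 7 for the alpha rings (SCL1, PRE8, PRE9, PRE6, PUP2, PRE5 and PRE10) and 7 for the beta rings (PRE3, PUP1, PUP3, PRE1, PRE2, PRE7 and PRE4). The 19S particle had 18 genes, namely the 6 ATPases RPT1 to RPT6, 4 other subunits of the base (RPN1, RPN2, RPN10 and RPN13) and 8 subunits of the lid (RPN3, RPN5, RPN6, RPN7, RPN8, RPN9, RPN11 and RPN12).

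The study asked how the loss of Def1, a regulator of RNA polymerase II, changes RNA levels, RNA turnover and translation in Saccharomyces cerevisiae. The WT strain, which the series names as W303, and the def1Δ strain, in which DEF1 is deleted, were grown to log phase in rich medium. Steady-state total RNA was sequenced in 2 libraries of each strain. For RATE-Seq, cells took up the uracil analog 4-thiouracil for 6, 9, 12, 24 or 90 min and only the labeled RNA was sequenced, in 2 libraries per strain and time, except at 12 min, where 1 library per strain was in the table. For ribosome profiling, cells were treated with cycloheximide, which halts ribosomes on the mRNA, and input RNA was sequenced in 3 libraries each of WT, def1Δ and dhh1Δ cells, the last lacking the helicase Dhh1. The ribosome footprints of these strains came as 3 columns each, which are barcoded replicates of a pooled library. The labels name 3 numbered runs each for the WT and def1Δ footprints and 1 sample for the dhh1Δ footprints. The study calls the replicates of total and labeled RNA biological ones. For the profiling libraries no source says that replicates were separate cultures, so p-values there measure the spread between these libraries only, which may be technical.

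Proteins marked with ubiquitin chains are recognized by the 19S particle, unfolded and threaded by its ring of ATPases into the barrel of the 20S core, and cut there by the beta subunits Pre3, Pup1 and Pre2. Rpn4 activates the subunit genes by binding a promoter element known as PACE. It is itself degraded within minutes by the proteasome, so that the amount of Rpn4 is lower where the proteasome's capacity is higher. RPN4 is in turn a target of stress factors, among them Yap1, Pdr1 and Pdr3, and Hsf1.

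The PACE letters GGTGGCAAA were searched on both strands in the 500 bases before each annotated coding start of the R64 genome from RefSeq. They were found in 99 of 6000 promoters (1.65%), and these held 27 of the 32 subunit genes (84.4%). The subunit genes with no exact match were PRE5, PUP1, RPN8, RPN10 and RPN13. With at most 1 mismatch allowed, all 32 subunit genes had a match, beside 743 of the 6000 promoters (12.4%). Each of the 27 promoters had its match between 76 bases (RPT6) and 175 bases (PUP3) from the coding start. Sites are shown for some of the subunit genes that had an exact match and were among those that moved most in the comparisons. RPN13 was also among those that moved most but had no exact match to show. Sequences run 5′ to 3′ on the strand of the element, with the match in capitals and 10 bases on either side.
RPT2: gtttttctccGGTGGCAAAtgtctctttt
RPN1: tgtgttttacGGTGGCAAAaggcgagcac
RPN2: atttattttcGGTGGCAAAactggataca
RPT4: ctttcccttcGGTGGCAAAttccactatt
RPN5: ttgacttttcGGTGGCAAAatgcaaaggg
PRE3: aacggaatccGGTGGCAAAaaagggaaaa
PRE1: aaatctttacGGTGGCAAAaaataaagaa
The matches lay at chrIV:437916-437924 for RPT2, chrVIII:164848-164856 for RPN1, chrIX:220811-220819 for RPN2, chrXV:813812-813820 for RPT4, chrIV:190786-190794 for RPN5, chrX:435045-435053 for PRE3 and chrV:177693-177701 for PRE1.

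The promoter of RPN4 had no PACE match, also with 1 mismatch allowed. It held the Yap1 element TTACTAA, found in 708 of the 6000 promoters (11.8%), a pair of matches to the Pdr1 and Pdr3 element TCCGTGGA, found in 63 promoters (1.05%), and a pair to the heat shock element GAANNTTC, found in 1151 promoters (19.2%). The other forms searched, TTAGTCA (5.97% of promoters) and TCCGCGGA (0.65%), were not in this window. These sites are shown because RPN4 stood apart from the subunit genes in the labeled RNA.
RPN4 Yap1 element: gtgatcgctaTTACTAAtagccgttta
RPN4 Pdr1 and Pdr3 element, first: aataacaagtTCCGTGGAactcaaagaa
RPN4 Pdr1 and Pdr3 element, second: cacgtgattaTCCGTGGAaaggttcgta
RPN4 heat shock element, first: gatggttctaGAAAGTTCcgtttcggcg
They lay at chrIV:417076-417082, chrIV:417143-417150, chrIV:417100-417107 and chrIV:417044-417051, in that order, and the other heat shock match is not shown. A match is a description of the letters and not evidence that a factor bound there.

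Depth and genotype were checked first. Total counts were 9954485 to 14243524 in the 4 steady-state libraries, 6026470 to 16318076 in the 18 labeled libraries, 14894073 to 45654269 in the 9 input libraries and 1984692 to 8635312 in the 9 footprint columns. All 33 genes passed the filter on low counts in every fit, and the lowest count of any of them in a library was 19, 120, 443 and 192 in these 4 kinds of data. DEF1 was at 0 to 0.26 CPM (counts-per-million, relative to the library total) in the labeled def1Δ libraries against 109 to 263 CPM in WT, and in the def1Δ input libraries it was at 4.76 to 7.48 CPM against 790 to 995 CPM in WT. DHH1 was at 65.0 to 85.1 CPM in the dhh1Δ input libraries against 216 to 305 CPM in WT. The def1Δ libraries thus matched their label. In the libraries labelled dhh1Δ the gene was lower than in WT but not near 0 in input RNA, with 24.9 to 28.6 CPM against 235 to 239 CPM in footprints, and the origin of these reads was not tested. CPM were scaled by the trimmed mean of M values (TMM), so a value is relative to the other RNAs of its library, and more copies of a member and fewer copies of the other RNAs cannot be told apart. A gene passed the test where the edgeR quasi-likelihood p, adjusted over all genes tested by Benjamini-Hochberg, was under 0.01, and differences are given as log2 with their standard error (SE). Shares of all genes that were higher or lower are those of this test alone. No such share is given for member counts at an unadjusted p, by DESeq2 or under other alternatives, so those counts have no background beside them.

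RPN4 mRNA made up more of the newly labeled RNA in def1Δ than in WT, by more than 2-fold after the shortest pulses. At 6 min its level was 208 and 192 CPM in the WT libraries and 466 and 433 CPM in the def1Δ libraries. At 9 min it was 145 and 112 CPM in WT and 372 and 333 CPM in def1Δ. The strains did not overlap at either time, and the log2 difference was 1.17 ± 0.14 (SE), adjusted p = 2.26e-06, at 6 min and 1.45 ± 0.14 (SE), adjusted p = 2.33e-07, at 9 min. RPN4 had the highest difference of the 33 genes at both times. Its single 12 min libraries had 104 CPM in WT and 282 CPM in def1Δ, with no replicate.

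After longer labeling the order changed. At 24 min RPN4 was at 203 and 224 CPM in WT and 172 and 185 CPM in def1Δ, so that both def1Δ libraries lay below both WT libraries, with a difference of -0.26 ± 0.13 (adjusted p = 0.107), which did not pass. At 90 min it was at 70.6 and 69.9 CPM in WT and 110.3 and 94.2 CPM in def1Δ, a difference of 0.54 ± 0.14 (adjusted p = 0.00304). This call at 90 min was lost without WT replicate 1 (adjusted p = 0.0196), WT replicate 2 (0.0217) or def1Δ replicate 1 (0.0449) of that time. Averaged over 6, 9, 24 and 90 min, RPN4 was higher in def1Δ by 0.73 ± 0.07 (adjusted p = 3.73e-08). In def1Δ the level fell at each step from 6 to 90 min, whereas in WT it fell from 6 to 12 min and was lowest at 90 min. The WT mean was highest at 24 min, but the WT libraries of 24 and 6 min overlapped. The values at 12 min are from 1 library per strain.

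**Figure D1:**
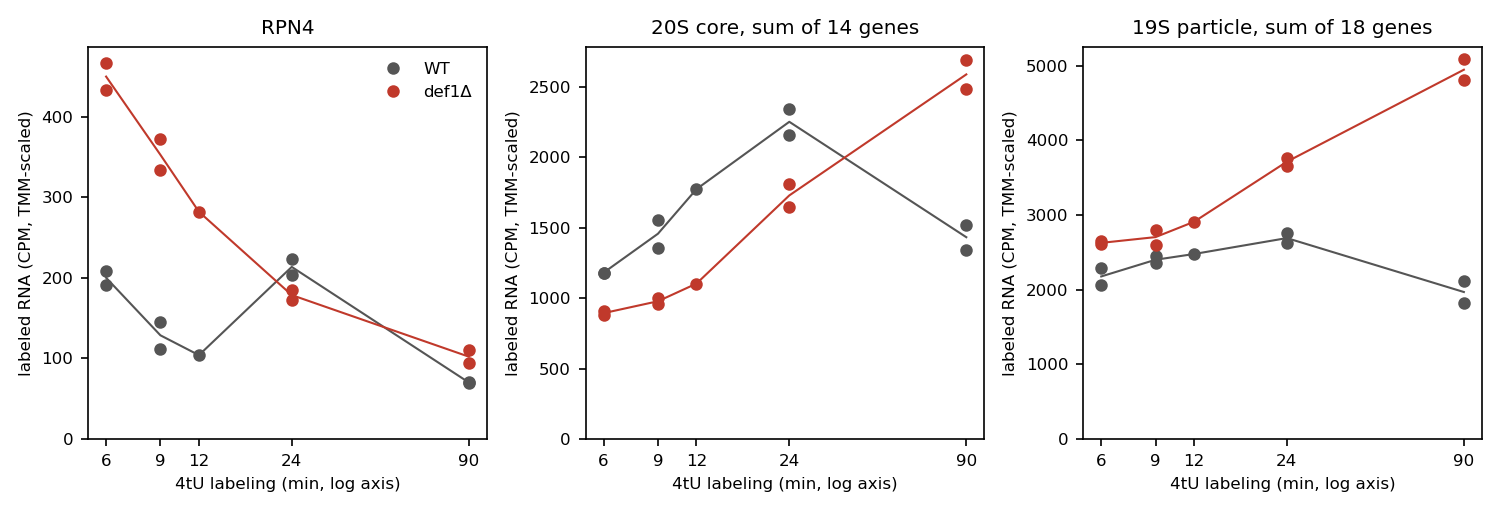
TMM-scaled CPM in labeled RNA (y axes, from 0) against minutes of 4-thiouracil labeling (x axes, log scale) for RPN4, the sum of the 14 core genes and the sum of the 18 genes of the 19S particle. Each point is a library of WT (grey) or def1Δ (red) and lines join the means. RPN4 in def1Δ lies above WT at 6 to 12 min and below it at 24 min, and both sums are highest in def1Δ at 90 min.

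At 6 min the shares of members that passed in either direction lay near those of all genes, and the differences of the 2 particles lay apart. At this time 7 of the 33 genes passed the test as higher in def1Δ and 6 as lower, where 24.3% of all genes tested were higher and 22.0% lower. The higher genes were RPN4 and 6 genes of the 19S particle, and the lower ones were 5 genes of the 20S core and RPN13. RPN1 (YHR027C), the largest subunit of the base and a docking site for ubiquitin-binding shuttles, rose by 0.68 ± 0.15 (adjusted p = 0.00122), and the ATPase gene RPT4 (YOR259C) by 0.67 ± 0.13 (adjusted p = 0.000307). PRE3 (YJL001W), which encodes the catalytic beta1 subunit, fell from 79.0 and 76.3 CPM in WT to 42.6 and 42.2 CPM in def1Δ (-0.87 ± 0.12, adjusted p = 1.20e-05). RPN13 (YLR421C), a ubiquitin receptor, differed by -0.72 ± 0.18 (adjusted p = 0.00306) and PRE1 (YER012W), the gene of the beta4 subunit, by -0.64 ± 0.15 (adjusted p = 0.00153). The median difference was -0.36 over the 14 genes of the 20S core and 0.16 over the 18 genes of the 19S particle, with -0.05 over all genes. All genes as long as those of the core had a median of -0.40, and those as long as the ATPase genes 0.07, so the core lay near the genes of its own length. The count of higher genes was 3 without WT replicate 1 and 2 without WT replicate 2, def1Δ replicate 1 or def1Δ replicate 2 of 6 min, and RPN1 did not pass without any of the last 3 (adjusted p = 0.0131 to 0.0326). RPN13 did not pass without WT replicate 1 (-0.67) or def1Δ replicate 2 (-0.63), nor PRE1 without WT replicate 2 (-0.60). By library totals 4 genes were higher and 10 lower, with the median of all genes shifted by -0.12.

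At 9 min PRE1 and PRE3, beta subunit genes of the core, were lowest in def1Δ. Of the 33 genes 10 passed as lower in def1Δ and 3 as higher, where 26.7% of all genes tested were higher and 24.0% lower. The lower genes were 9 of the 14 core genes and RPN13, and the higher ones were RPN4, RPN1 and RPN2. PRE1 was at 93.0 and 112 CPM in WT and 46.6 and 54.6 CPM in def1Δ (-1.02 ± 0.15, adjusted p = 1.95e-05). PRE3 was at 93.3 and 98.2 CPM in WT and 48.9 and 43.8 CPM in def1Δ (-1.05 ± 0.12, adjusted p = 1.45e-06). For both genes the def1Δ libraries lay near 2-fold below WT with no overlap. RPN13 differed by -0.87 ± 0.18 (adjusted p = 0.000458). RPN1 was higher by 0.59 ± 0.15 (adjusted p = 0.00303) and RPN2 (YIL075C), the scaffold on which Rpn13 sits, by 0.59 ± 0.14 (adjusted p = 0.00133). The rises of RPN1 and RPN2 did not pass without WT replicate 2 or def1Δ replicate 1 of 9 min (RPN1 0.51 and 0.43, RPN2 0.49 and 0.34), and that of RPN1 did not pass without any 1 of 5 other libraries. The count of lower genes was 4 with the libraries of 9 min alone and 16 with no count filter. It was also 16 without WT replicate 1 of 6 min or without def1Δ replicate 1 of 24 min, so the count depended on these choices. The share of all genes is not given for these alternatives, so their counts cannot be set against it.

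At 24 min these shares were again no larger than those of all genes. Of the 33 genes 7 passed as higher, all of the 19S particle, and 6 as lower, namely 5 of the core and RPN13, where 28.9% of all genes tested were higher and 23.1% lower. RPN2 rose from 242 and 216 CPM in WT to 540.0 and 453 CPM in def1Δ (1.12 ± 0.14, adjusted p = 3.20e-06). RPN1 rose from 261 and 242 CPM to 536 and 473 CPM (1.00 ± 0.15, adjusted p = 2.81e-05), and the lid gene RPN9 differed by 0.64 ± 0.16 (adjusted p = 0.00207). RPN13, at 41.9 and 44.2 CPM in WT and 18.9 and 22.7 CPM in def1Δ, was the lowest of the set (-1.04 ± 0.17, adjusted p = 4.10e-05). PRE1 differed by -0.99 ± 0.15 (adjusted p = 1.81e-05) and PRE3 by -0.97 ± 0.12 (adjusted p = 2.06e-06). The medians were -0.37 for the core, 0.33 for the 19S particle and 0.02 for all genes, beside -0.37 for all genes of the core's length and 0.26 for all genes of the ATPases' length. RPN9 did not pass without WT replicate 1, WT replicate 2 or def1Δ replicate 1 of 24 min, and the count of higher genes was 4 without the first or the last of these. By library totals 13 genes were higher and 4 lower, with the median of all genes shifted by 0.21.

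After 90 min of labeling nearly the whole complex was higher in def1Δ. Of the 33 genes 30 passed as higher and 0 as lower, where 28.3% of all genes tested were higher and 23.7% lower, and 32 of the 33 had both def1Δ libraries above both WT libraries, as did 42.6% of all genes. No member was lower at an unadjusted p under 0.05, and DESeq2 called 29 higher and 0 lower. The median difference was 1.05 for the 33 genes and 0 for all genes. By place in the complex it was 0.82 for the core (12 of 14 passed), 1.62 for the ATPases (6 of 6), 1.27 for the other base subunits (3 of 4) and 1.07 for the lid (8 of 8). RPT4 was at 64.9 and 48.3 CPM in WT and 219 and 215 CPM in def1Δ (1.93 ± 0.13, adjusted p = 6.28e-09). RPT2 (YDL007W), the ATPase whose tail opens the gate of the core, was at 83.6 and 74.4 CPM and 252 and 293 CPM (1.79 ± 0.15, adjusted p = 3.56e-08). RPN1 was at 216 and 155 CPM and 626 and 646 CPM (1.78 ± 0.16, adjusted p = 7.40e-08). All 3 were more than 3-fold higher in def1Δ.

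The 3 genes that did not pass at 90 min were RPN13, PRE3 and PUP2, the gene of the alpha5 subunit. RPN13 was at 34.3 and 28.6 CPM in WT and 31.5 and 28.6 CPM in def1Δ, and the strains overlapped (-0.07 ± 0.17, adjusted p = 0.737). PRE3 was at 122 and 100.3 CPM and 143 and 144 CPM (0.37 ± 0.12, adjusted p = 0.0106), and PUP2 at 48.6 and 45.0 CPM and 63.0 and 66.4 CPM (0.46 ± 0.16, adjusted p = 0.0155). Both of these lay above WT in each library, and both passed without either WT library of 9 min. PRE3 and PRE1 thus went from below WT at 24 min to above it at 90 min. Summed over the 14 core genes, the 90 min libraries had 1520.3 and 1344 CPM in WT against 2483 and 2691 CPM in def1Δ. Summed over the 18 genes of the 19S particle they had 2111 and 1828 CPM in WT against 4805 and 5088 CPM in def1Δ. The def1Δ sums were thus above the WT sums in every library.

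**Figure D2:**
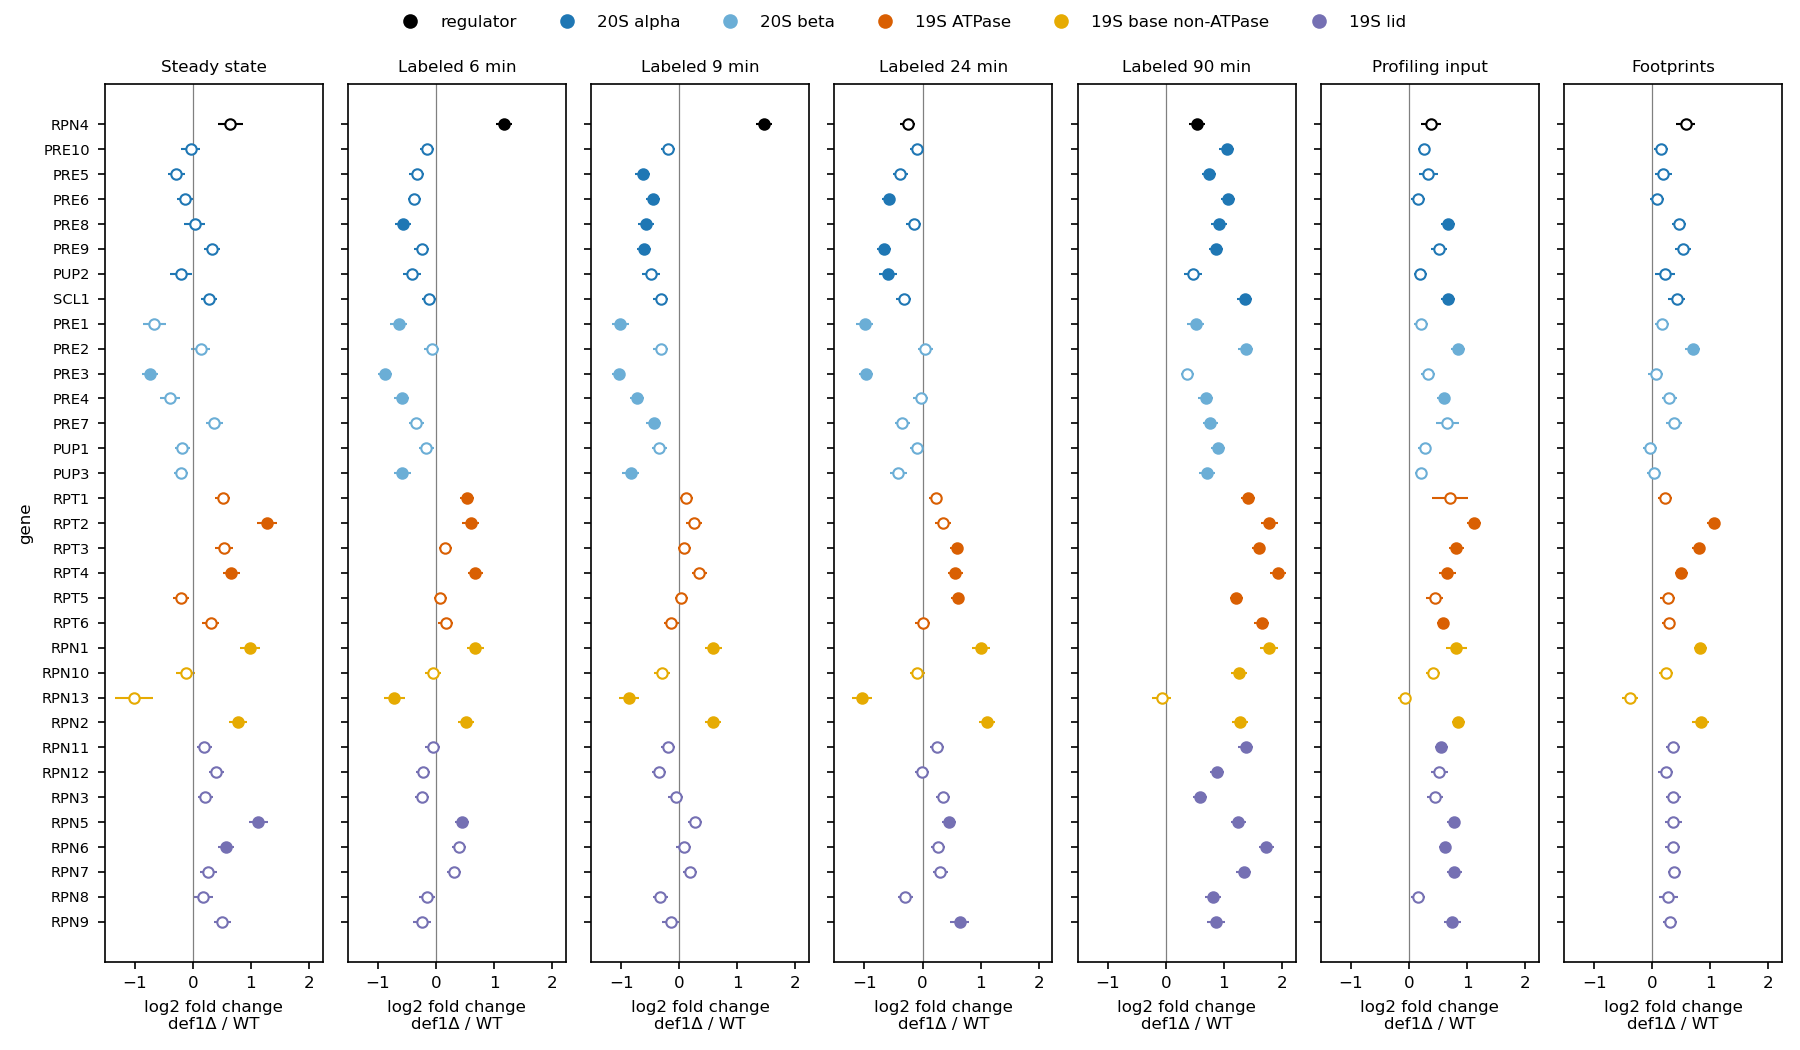
Log2 difference between def1Δ and WT (x axes) of each of the 33 genes (y axis, coloured by place in the complex) in the 7 comparisons named above the panels, with bars of 1 SE. Filled points passed the test and open points did not. At 90 min of labeling 30 points are filled and to the right of 0, whereas at 9 min 9 of the 14 core genes are filled and to the left.

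Averaged over 6, 9, 24 and 90 min, 15 of the 33 genes were higher in def1Δ and 5 lower, where 36.6% of all genes tested were higher and 33.4% lower, with a median of 0.16 for the members and 0.00 for all genes. RPN1 (1.01), RPT4 (0.88) and RPN2 (0.87) were highest, and RPN13 (-0.67), PRE3 (-0.63) and PRE1 (-0.53) lowest. The 6 ATPases all passed as higher, and 1 of the 14 core genes did. By library totals 19 were higher and 3 lower.

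A gene whose share of the labeled RNA is larger after short than after long labeling is taken to be renewed faster than the typical RNA of its library, so the mean log2 level at 6 and 9 min was set against that at 24 and 90 min. In WT 3 of the 33 genes were higher early and 18 were higher late, where 32.7% of all genes tested were higher early and 21.8% late. The genes higher early were RPN2 (0.52 ± 0.10, adjusted p = 0.000189), RPN4 (0.39 ± 0.10, adjusted p = 0.00215) and RPN1 (0.36 ± 0.11, adjusted p = 0.00837). PRE9 (-0.91), the alpha3 gene, PRE5 (-0.77), the alpha6 gene, and RPN13 (-0.92) were the most shifted toward late labeling. The WT split depends on scaling. By library totals alone 11 members were higher early and 2 late, and the median of all genes moved by 0.48, while the members' median stayed 0.43 below that of all genes under both scalings. RPN4 did not pass without WT replicate 1 of 6 min (0.34, adjusted p = 0.0112) or of 24 min (0.36, adjusted p = 0.0117), and RPN1 did not pass without any 1 of 12 of the 16 replicated libraries. The count higher early was 1 without WT replicate 1 of 6 min or of 24 min, and 6 without WT replicate 2 of 9 min. With 6 min alone set against 90 min alone, 6 members were higher late in place of 18.

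In def1Δ the same contrast set RPN4 apart from all the subunits. RPN4 was higher early by 1.56 ± 0.10 (adjusted p = 1.59e-09), as the 1 member that passed in this direction, and 31 members were higher late, where 33.2% of all genes tested were higher early and 31.1% late. The median of the members was -1.0 against 0.06 for all genes. All 14 core genes passed as higher late, with a median of -1.17, led by PRE9 (-1.43), PRE5 (-1.43) and SCL1 (-1.41), the alpha1 gene. All genes as long as those of the core had a median of -0.60 in def1Δ and -0.26 in WT. The subunit that did not pass was RPN2 (-0.13 ± 0.10, adjusted p = 0.232), and RPN3, a lid gene, had the next smallest shift (-0.35).

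The difference between the strains in this contrast was tested directly as an interaction of strain and time. It was lower in def1Δ for 29 of the 33 genes and higher for 1, RPN4, where 6.03% of all genes tested were higher and 9.89% lower. RPN4 differed by 1.17 ± 0.14 (adjusted p = 4.68e-05). PRE4, the beta7 gene, rose from 116 and 135 CPM at 6 min to 278 and 292 CPM at 90 min in def1Δ, and was at 194 and 185 CPM and 189.5 and 164 CPM in WT (-0.98 ± 0.12, adjusted p = 7.89e-05). RPT3, a 19S ATPase gene, rose from 155 and 153 CPM to 295 and 312 CPM in def1Δ while it was at 141 and 134 CPM and 105 and 95.1 CPM in WT (-0.97 ± 0.11, adjusted p = 4.44e-05). PRE8, the alpha2 gene, differed by -0.96 ± 0.14 (adjusted p = 0.000189). In WT PRE4 was at 252 and 262 CPM at 24 min and RPT3 at 157 and 149 CPM, so both were lower at 90 than at 24 min there, whereas in def1Δ both were highest at 90 min. The 3 genes that did not pass were RPN13 (-0.24 ± 0.17, adjusted p = 0.332), PUP2 (-0.39 ± 0.15, adjusted p = 0.066) and RPN8 (-0.50 ± 0.13, adjusted p = 0.0108), a lid gene. PUP2 passed without WT replicate 1 of 9 min. The medians were -0.66 for the core, -0.73 for the 19S particle and -0.05 for all genes. Over the 32 subunits the median difference between the strains was -0.15, -0.31, -0.02 and 1.06 at 6, 9, 24 and 90 min. For the subunits the interaction thus drew mostly on the 90 min difference given above and is not a separate result. In WT the core sums were 2157 and 2344 CPM at 24 min and 1520 and 1344 CPM at 90 min, so they were not highest at the last time. Among the 71 other genes tested whose promoter held a PACE match, 5 were higher and 10 lower in the interaction, with a median of -0.02. At 90 min 29 of these 71 passed as higher and 15 as lower, with a median of 0.18. Of all genes tested 28.3% were higher and 23.7% lower at 90 min, with a median of 0.

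**Figure D3:**
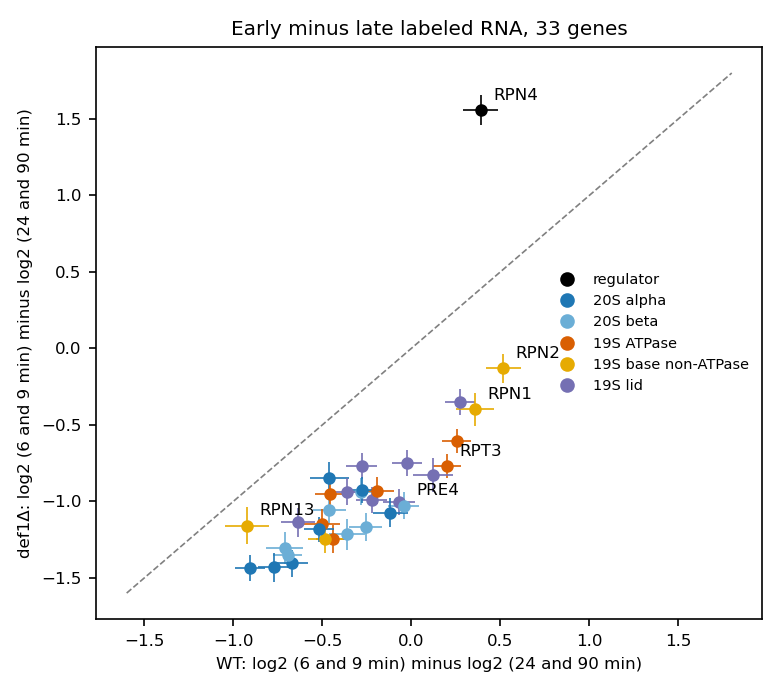
Early minus late log2 difference (mean of 6 and 9 min minus mean of 24 and 90 min) in WT (x axis) and def1Δ (y axis), one point per member with bars of 1 SE, coloured by place in the complex. The subunits lie below the dashed line of equal values and RPN4 lies above it, with 0.39 in WT and 1.56 in def1Δ.

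The split between the core and the 19S particle ran along coding length. The core genes are short, at 597 to 867 bases, the ATPase genes have 1218 to 1404 bases, RPN1 and RPN2 have 2982 and 2838 bases, and RPN13 is the shortest, at 471 bases. Across the 32 subunits the Spearman correlation of length with the difference between strains was 0.86 at 6 min, 0.94 at 9 min, 0.90 at 24 min and 0.66 at 90 min. Across all genes with a length it was 0.57, 0.60, 0.62 and 0.30 at these times. These are descriptions across genes of the same libraries, which are not independent replicates. The genes of the genome as long as the core genes had a median difference of -0.40, -0.46, -0.37 and -0.03 at 6, 9, 24 and 90 min, and those as long as the ATPase genes had 0.07, 0.15, 0.26 and 0.33. Early minus late levels within a strain also followed length. The correlation was 0.64 in WT and 0.70 in def1Δ across the subunits, and 0.59 and 0.56 across all genes. The early minus late difference between strains had a correlation of -0.03 with length across the subunits and 0.20 across all genes.

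When each library's trend of level with length was removed, an alternative chosen after seeing the data, the rise at 90 min was kept and the split at the shorter times shrank. At 90 min 31 genes were higher and 0 lower, with all 14 core genes and 17 of 18 of the 19S genes among them and a median of 0.97. At 9 min 1 gene was higher and 4 lower, against 3 and 10 with no correction, and RPN1 (-0.28) and RPN2 (-0.25) changed sign. At 6 min 6 were higher and 2 lower, and RPN1 was at -0.05, while at 24 min 5 were higher and 4 lower. PRE3 kept a difference of -0.50 ± 0.11 (adjusted p = 0.00077) at 9 min. RPN4 was higher by 0.96 ± 0.11 (adjusted p = 2.09e-06) at 6 min and 1.14 ± 0.11 (adjusted p = 3.23e-07) at 9 min, and passed as lower at 24 min (-0.64 ± 0.11, adjusted p = 9.91e-05), while at 90 min it did not pass (0.32 ± 0.11, adjusted p = 0.0246). Averaged over the times 24 genes were higher and 1 lower. The interaction of strain and time kept 26 genes lower and 1 higher. In def1Δ the early minus late median was -0.63 for the core and -1.02 for the ATPases, against -1.17 and -0.94 with no correction. In WT the early shift of RPN4 was then 0.09 ± 0.08 (adjusted p = 0.369), and RPN2 (-0.12) changed sign, as did RPN1 (-0.29 ± 0.08, adjusted p = 0.00731), which passed as higher late. What makes the levels follow length in these libraries was not tested.

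**Figure D4:**
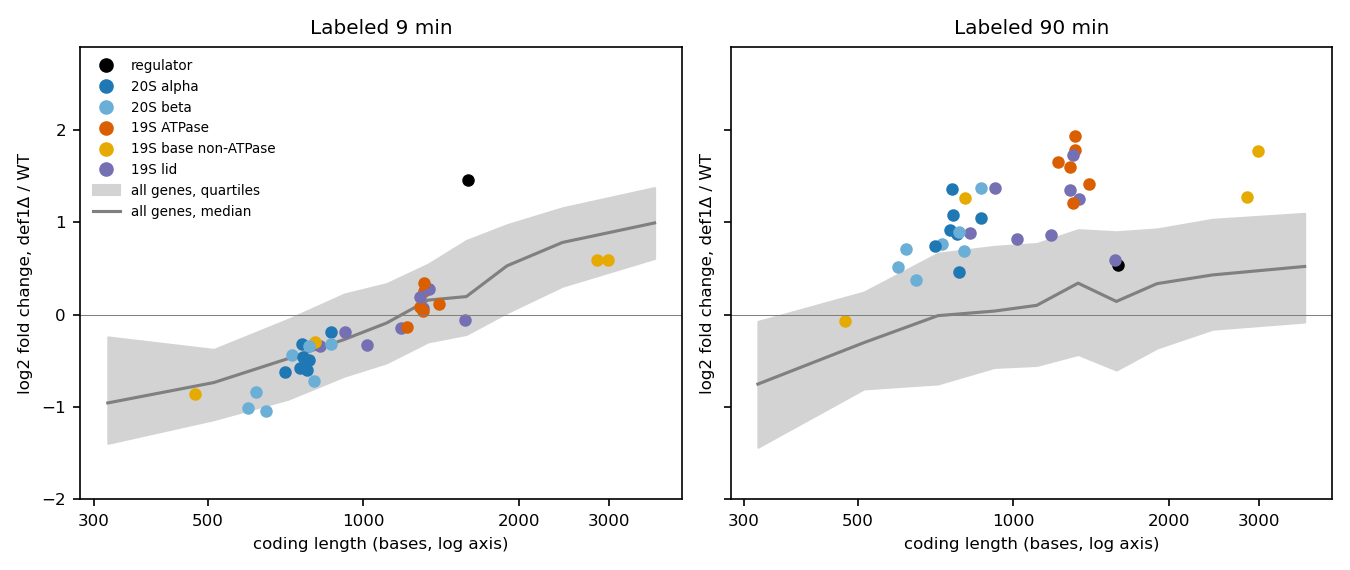
Log2 difference between def1Δ and WT (y axis) against coding length in bases (x axis, log scale) at 9 and 90 min of labeling, with the members as coloured points, the median of all genes in 10 bins of length as a line and their quartiles as a band. At 9 min the subunits run from -1.05 at PRE3 to 0.59 at RPN1, rising with length as the line does, and at 90 min most lie above it.

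In steady-state total RNA few of the genes passed, with a share of higher genes near that of all genes. In def1Δ 6 of the 33 genes were higher and 1 lower, where 15.4% of all genes tested were higher and 16.4% lower. The higher genes were RPT2, RPT4, RPN1, RPN2, RPN5 and RPN6, all of the 19S particle, and the lower one was PRE3. Differences in total RNA also followed coding length, with a Spearman correlation of 0.74 across the subunits and 0.28 across all genes. The core had a median of -0.16, beside -0.23 for all genes of its length. With the length trend removed 10 genes were higher, 2 of the core and 8 of the 19S particle, and 0 were lower. RPT2 was at 14.8 and 21.5 CPM in WT and 42.7 and 45.7 CPM in def1Δ (1.28 ± 0.18, adjusted p = 0.00069). RPN5, a lid gene, was at 27.4 and 36.1 CPM and 64.1 and 75.2 CPM (1.13 ± 0.17, adjusted p = 0.000901), and RPN1 at 84.5 and 115 CPM and 197 and 197 CPM (0.98 ± 0.17, adjusted p = 0.00185). All 3 were about 2-fold higher, with no overlap of the strains. PRE3 was at 36.1 and 41.5 CPM in WT and 22.1 and 24.6 CPM in def1Δ (-0.73 ± 0.13, adjusted p = 0.00265). RPN13 (5.47 and 6.86 CPM against 1.97 and 3.95 CPM) and PRE1 (23.0 and 33.5 CPM against 19.9 and 16.1 CPM) also lay below WT in every library but did not pass, with -1.02 ± 0.33 (adjusted p = 0.0315) and -0.66 ± 0.20 (adjusted p = 0.0228).

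RPN4 was at 18.6 and 28.5 CPM in WT and 32.1 and 41.8 CPM in def1Δ in total RNA. The strains did not overlap and the difference was 0.65 ± 0.21 (adjusted p = 0.0343), which did not pass, and it passed without WT replicate 2 (1.00, adjusted p = 0.00033). It was 0.37 (adjusted p = 0.0894) without WT replicate 1 and 0.44 without def1Δ replicate 2. Summed over the core genes the level was 384 and 463 CPM in WT and 394 and 400.3 CPM in def1Δ. Summed over the 19S genes it was 611 and 746 CPM in WT and 1024 and 1050.4 CPM in def1Δ, so the 19S sums were apart and the core sums were not. Together the 33 genes took 0.100 to 0.145% of these libraries, against 0.824 to 1.44% of the profiling input libraries, which were prepared and counted separately. The counts rest on few libraries. Without WT replicate 2 the test passed 12 genes as higher, and without def1Δ replicate 1 or 2 it passed 0 genes in either direction. Without WT replicate 1 it passed 3 genes as lower, PRE1 among them (-0.91, adjusted p = 0.000459), whereas PRE1 was at -0.36 without WT replicate 2. By library totals 3 were higher and 3 lower, with the median of all genes shifted by -0.22.

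In the input RNA of the profiling experiment the def1Δ strain had higher levels of subunits in both particles. Of the 33 genes 15 passed as higher than WT and 0 as lower, where 14.1% of all genes tested were higher and 9.87% lower, and 23 had all 3 def1Δ libraries above all 3 WT libraries, as did 24.8% of all genes. At an unadjusted p under 0.05 25 were higher and 0 lower, and DESeq2 passed 18 and 0, with no share of all genes given for either rule. RPT2 was at 467, 356 and 428 CPM in WT and 840.0, 915 and 952 CPM in def1Δ (1.11 ± 0.12, adjusted p = 8.03e-05). RPN2 was at 895, 783 and 812 CPM and 1409, 1458 and 1626 CPM (0.85 ± 0.11, adjusted p = 0.000256). PRE2, the catalytic beta5 gene, was at 156, 202 and 156 CPM and 316, 299 and 306 CPM (0.84 ± 0.13, adjusted p = 0.000498). All 3 had every def1Δ library above every WT library. RPN13 (-0.07 ± 0.11, adjusted p = 0.631), RPN8 (0.15 ± 0.12, adjusted p = 0.343) and PRE6 (0.16 ± 0.12, adjusted p = 0.3), the alpha4 gene, had the lowest differences. The medians were 0.33 for the core (4 of 14 passed), 0.64 for the 19S particle (11 of 18) and -0.01 for all genes. RPN4 was at 204, 159 and 185 CPM in WT and 271, 266 and 173 CPM in def1Δ, with the third def1Δ library within the WT range (0.38 ± 0.18, adjusted p = 0.111).

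The dhh1Δ strain, set against the same 3 WT libraries, passed 0 of the 33 genes in either direction, where 13.5% of all genes tested were higher and 9.15% lower. At an unadjusted p under 0.05 11 were higher and 0 lower, and DESeq2 passed 3 as higher and 0 as lower, with no share of all genes given for either rule. The median was 0.16. The highest were PRE7 (0.68 ± 0.20, adjusted p = 0.0215), the beta6 gene, RPN9 (0.49 ± 0.15, adjusted p = 0.0287) and RPT2 (0.42 ± 0.12, adjusted p = 0.0205), and the lowest RPN10 (-0.24), RPN8 (-0.16) and PRE10 (-0.15), the alpha7 gene. RPN4 was at 226, 209 and 179 CPM in dhh1Δ (0.17 ± 0.18, adjusted p = 0.497). Without WT replicate 1 the test passed 2 genes as higher, RPN9 among them (0.64, adjusted p = 0.0088).

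Set against each other, def1Δ was higher than dhh1Δ in 6 of the 33 genes and lower in 0, where 5.88% of all genes tested were higher and 7.18% lower. The 6 genes were RPT2, RPT3, RPT6, RPN2, RPN6 and RPN10, all of the 19S particle. With the length trend removed 8 members passed as higher, 5 of the 19S particle and 3 of the core. RPN2 was at 1409, 1458 and 1626 CPM in def1Δ and 865, 933 and 894 CPM in dhh1Δ (0.74 ± 0.11, adjusted p = 0.0011), and RPT2 at 840.0, 915 and 952 CPM and 569.7, 574 and 533 CPM (0.69 ± 0.12, adjusted p = 0.00267). RPN1 had a like difference but did not pass (0.72 ± 0.18, adjusted p = 0.0154). PRE1 (-0.19), PRE7 (-0.02) and PUP2 (0.03) had the lowest, and RPN4 had 0.21. No member was lower at an unadjusted p under 0.05 or by DESeq2, which passed 12 as higher. The count was 1 without def1Δ replicate 2 and without dhh1Δ replicate 2 or 3, 2 without def1Δ replicate 3, 3 without dhh1Δ replicate 1 and 10 without WT replicate 3, and RPT2 did not pass without def1Δ replicate 2 or 3 or any 1 of the dhh1Δ replicates (adjusted p = 0.0135 to 0.0187).

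Ribosome footprints were set against WT in the same way. Of the 33 genes 6 had more footprints in def1Δ than in WT and 0 had fewer, where 11.8% of all genes tested were higher and 12.7% lower, and 25 had all 3 def1Δ columns above all 3 WT columns, as did 25.2% of all genes. At an unadjusted p under 0.05 19 were higher and 1 lower, and DESeq2 passed 10 and 0, with no share of all genes given for either rule. By library totals 13 were higher, and 10 with the length trend removed. The 6 genes were PRE2, RPT2, RPT3, RPT4, RPN1 and RPN2. RPT2 was at 258, 229.5 and 230.0 CPM in WT and 523, 481 and 488 CPM in def1Δ (1.06 ± 0.12, adjusted p = 0.00011). RPN2 was at 368, 261 and 302 CPM and 577, 599 and 487 CPM (0.84 ± 0.15, adjusted p = 0.00168), and RPN1 at 475, 426 and 441 CPM and 789, 806 and 789 CPM (0.83 ± 0.11, adjusted p = 0.000283). These 3 rose with no overlap of the columns, and RPN2 did not pass without def1Δ column 1 (0.81, adjusted p = 0.0104). The lowest differences were those of RPN13 (-0.39 ± 0.14, adjusted p = 0.0486), PUP1 (-0.04), the catalytic beta2 gene, and PUP3 (0.03), the beta3 gene. RPN4 was at 93.0, 86.9 and 94.3 CPM in WT and 153, 154 and 103 CPM in def1Δ (0.58 ± 0.16, adjusted p = 0.018), and it passed without def1Δ column 3 (0.75, adjusted p = 0.00141). The columns are parts of 1 pooled library per strain, so the test reflects the spread within it.

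The single dhh1Δ footprint sample gives values with no test. RPT2 was at 287, 261 and 244 CPM in its 3 columns, RPN4 at 91.4, 112 and 86.6 CPM and RPN13 at 87.8, 72.2 and 77.2 CPM. Summed over the 19S genes the columns had 4318 to 4671 CPM in dhh1Δ, 4372 to 4467 CPM in WT and 6159 to 6262 CPM in def1Δ. The core sums were 2732 to 2962 CPM in dhh1Δ, 2469 to 2764 CPM in WT and 3083 to 3305 CPM in def1Δ. In both sums def1Δ lay above the other strains, and dhh1Δ overlapped WT.

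Translational efficiency, the footprints of a gene relative to its input RNA, was tested as an interaction of strain and kind of library. Of the 33 genes 0 passed as higher in def1Δ and 0 as lower, where 0.140% of all genes tested were higher and 0.0156% lower, so the test passed almost no gene at all. At an unadjusted p under 0.05 0 members were higher and 4 lower, and DESeq2 passed 0. The median was -0.21 for the members and -0.08 for all genes, and that of the members was -0.098 without WT replicate 2 input. The lowest values were those of RPT1 (-0.53 ± 0.37, adjusted p = 0.497), RPN9 (-0.48 ± 0.21, adjusted p = 0.298) and RPN5 (-0.45 ± 0.20, adjusted p = 0.312), and the highest those of RPN4 (0.17 ± 0.27, adjusted p = 0.795), RPN8 (0.09) and PUP2 (-0.01). The value of RPT1, whose input count is uncertain, ranged from -1.05 without WT replicate 1 input to -0.11 without WT replicate 2 input. A missed threshold does not show that the efficiencies were alike, given the size of these errors.

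Levels per kilobase of coding length were compared between members within a kind of library. The 20S core holds each of its subunits in equal number, and in WT footprints its 14 genes lay close together, with a median of 240.2 CPM per kilobase, an SD of 0.22 on the log2 scale, and 1.54 times between the highest (PRE7, 314) and the lowest (PUP2, 204). In WT input RNA the same genes spread more, with a median of 285 CPM per kilobase, an SD of 0.58 and 3.85 times between PRE6 (587) and PRE9 (153). In def1Δ the footprint levels of the core had a median of 283 CPM per kilobase and 1.99 times between PRE2 (464) and PRE5 (233), so the top gene changed. The 19S genes had a median of 196 CPM per kilobase in WT footprints, with 2.50 times between RPT1 (263) and RPN3 (105), and RPN4 was below all of them at 57.3. In the labeled RNA at 6 min RPN4 was in contrast the highest of the 33 genes in def1Δ, at 282 CPM per kilobase. In WT input RNA the 19S genes were 17.7 times apart, from RPN13 (475) to RPT1 (26.8). WT steady-state RNA, prepared and counted separately, gave another order. There RPN13 was the lowest of the 33 genes, at 13.1 CPM per kilobase. Among the core genes PRE4 (80.3) was highest there and PRE6 was at 26.1. Which order holds for the mRNAs was not tested. RPT1 had 60.7, 21.7 and 30.5 CPM in the WT input libraries and a footprint to input ratio of 9.81, where the next highest member, RPN12, had 2.07. Its input count is therefore uncertain, and the reason was not tested.

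**Figure D5:**
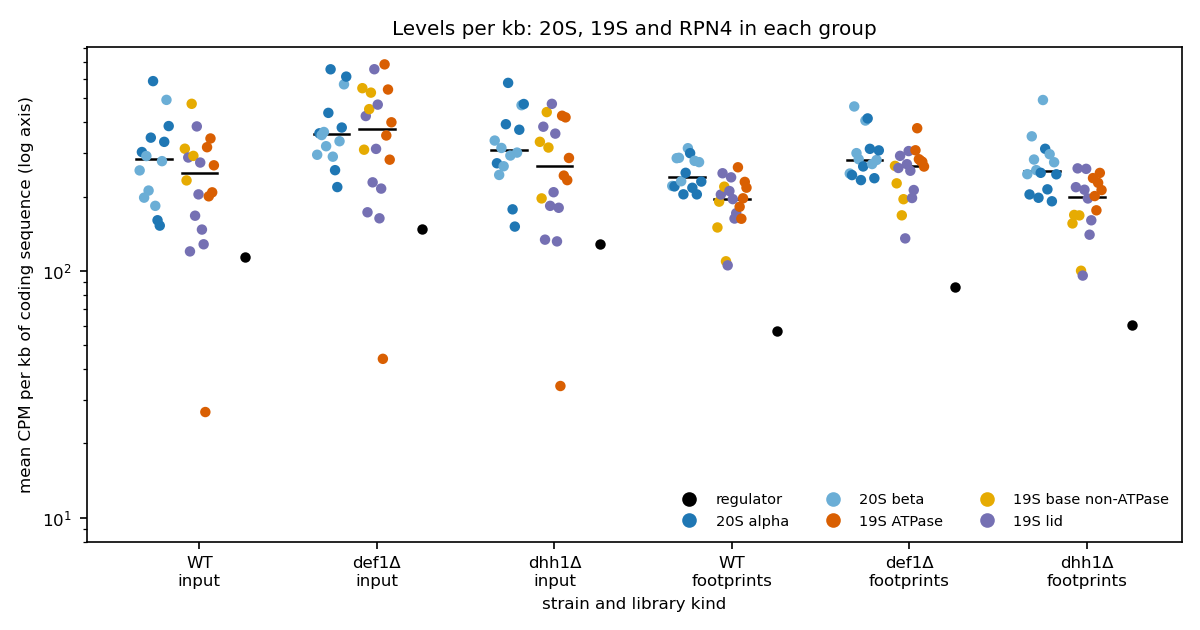
Mean level of each member in CPM per kilobase of coding length (y axis, log scale), for each strain's input RNA and footprints (x axis), with the core genes, the 19S genes and RPN4 side by side, coloured by place in the complex, and bars at the medians. The 14 core genes lie within 1.54 times of each other in WT footprints and within 3.85 times in WT input RNA, and RPT1 lies below the other ATPases in input RNA.

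The other genes of the pathway were followed as a list of 29, made of assembly chaperones, associated subunits, shuttle factors, ubiquitin genes and ligases. In labeled RNA at 90 min 15 of the 29 were higher in def1Δ and 1 lower (28.3% of all genes higher and 23.7% lower). UBI4, a polyubiquitin gene induced by stress (2.41), CDC48, the segregase that extracts ubiquitinated proteins (1.93), and its cofactor gene NPL4 (1.75) rose most, and BLM10, an activator that caps the core, fell by 0.47. UBI4 reads can be shared with the other ubiquitin genes, whose repeats are near-identical, so its values are uncertain. At 6 min 7 were higher and 5 lower (24.3% of all genes higher and 22.0% lower), at 9 min 7 and 4 (26.7% of all genes higher and 24.0% lower), and at 24 min 10 and 5 (28.9% of all genes higher and 23.1% lower). The list's counts of higher genes at these 3 times were near the share of all genes. UBR2 and MUB1 encode the ligase and its partner that mark Rpn4 for degradation, and they were higher in def1Δ early, with 1.27 for UBR2 at 6 min, and 1.45 for UBR2 and 1.33 for MUB1 at 9 min. UFD4, another ligase gene, was higher by 1.08, 1.17 and 1.68 at 6, 9 and 24 min. SEM1, a small lid subunit gene outside the 33, was lowest at each of these times (-1.74, -2.04 and -1.79). The values of the list are not corrected for coding length. At 9 min the median over all genes ran from -0.96 in the shortest of 10 bins of length to 0.99 in the longest.

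In the early against late contrast 7 of the 29 were higher early in def1Δ and 16 late (33.2% of all genes early and 31.1% late), and the difference between the strains passed as higher for 1, MUB1 (0.97), and as lower for 10, led by HSM3, a chaperone of the base (-0.89), the shuttle gene DSK2 (-0.89) and NPL4 (-0.89), where 6.03% of all genes tested were higher and 9.89% lower. In total RNA 7 were higher and 1 lower (15.4% of all genes higher and 16.4% lower), with UBI4 (2.04), NPL4 (1.14) and UFD4 (1.04) at one end and the base chaperone gene NAS6 (-0.70) at the other. In input RNA 8 were higher in def1Δ and 0 lower (14.1% of all genes higher and 9.87% lower), led by UBI4 at 1.87, STS1 at 0.83 and NPL4 at 0.81. In dhh1Δ 6 were higher and 1 lower (13.5% of all genes higher and 9.15% lower), with UBI4 at 1.99, STS1 at 1.21 and HUL5 at 0.82, and the shuttle gene RAD23 as the lower one (-0.56). These comparisons share the WT libraries. UBI4 was thus above WT in both mutants, and RAD23 passed as higher in def1Δ than in dhh1Δ (0.76). In footprints 5 were higher in def1Δ and 0 lower (11.8% of all genes higher and 12.7% lower), led by UBI4 at 1.88, UFD4 at 1.44 and NPL4 at 0.84. Of the 29 promoters 4 held an exact PACE match, those of ECM29, CDC48, UBI4 and UBA1.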

How the data were processed

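For steady-state RNA and RATE-Seq, per the study's methods, the authors mapped reads with STAR and deposited estimated counts per gene from RSEM 1.2.28, with no normalization. For ribosome profiling the authors deposited whole-number counts per gene. The submitters' notes name HISAT2 and featureCounts among the tools and R64 among the builds, and which of them made these counts is not given in the sources used here. The estimated counts were rounded to whole numbers. The spike-in reads were not used here, and TMM scaling makes each level relative to its library.

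Genes with under 15 counts over the libraries of a fit were left out. The edgeR 4.0.16 quasi-likelihood test (R 4.3.3) was fitted over all genes for total RNA, for labeled RNA (a mean per strain and time), for input RNA, for footprints and for both kinds of profiling library (the interaction of strain and kind), with Benjamini-Hochberg adjustment and a threshold of 0.01. Scripts were tested on simulated data. Alternatives were library totals, DESeq2 size factors and test (1.42.0), count filters, a threshold of 0.05, an added 2-fold cutoff, fits of single times, a replicate block, each library left out, and removal of the trend with coding length. Named were RPN4, DEF1, DHH1, the 3 members at each end of every comparison and up to 3 passing genes of the pathway list in each direction. Others were chosen after their values were seen. The members, the pathway list and the tests were chosen with earlier results of these data known. Footprint columns could not be matched to the numbered runs in the labels.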

Additional observations from a re-analysis of the deposited data

Results flagged for a closer look

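The change of labeled RNA from early (6 and 9 min) to late (24 and 90 min) pulses differed between WT and def1Δ by the interaction of strain and time, for 29 of the 33 genes in one direction (early minus late lower in def1Δ) and for 1 in the other. The 1 gene was RPN4, with a difference of 1.17 on the log2 scale, and the subunit genes furthest from it were PRE4 (-0.98), RPT3 (-0.97) and PRE8 (-0.96). Of all genes tested 9.89% were lower and 6.03% higher in this interaction. For the subunits it drew mostly on 90 min, where the median difference between the strains over the 32 subunits was 1.06, against -0.02 at 24 min. Input RNA differed between the mutants for 6 of the 33 genes by the direct test of def1Δ against dhh1Δ, all higher in def1Δ. Of all genes tested 5.88% were higher and 7.18% lower there. The count was 1 without def1Δ replicate 2 and without dhh1Δ replicate 2 or 3, so it rests on single libraries. RPN4 at 12 min of labeling, a time that enters no comparison, was at 282 CPM in the def1Δ library and 104 CPM in the WT library, which is a difference between single libraries and was not tested.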

How the results depend on the processing

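Each of the 33 genes had at least 19 counts in every library. The limits were the 2 libraries per group in total and labeled RNA, the pooled footprint library, and scaling to each library's other RNAs, which cannot show a change shared by all RNAs. The counts at 90 min, in def1Δ from early to late, between the strains from early to late, and in input RNA of def1Δ stayed within 1.5 times of the reported count under every alternative run except the added 2-fold cutoff. Over all alternatives 35 values of single named genes changed sign and 1696 kept their sign and their side of the threshold. A further 76 values kept their sign but no longer passed the threshold, and 35 kept their sign and newly passed it. The causes of these changes were not tested.

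With the added 2-fold cutoff the members passing in the leading direction were 2 in total RNA, 1 at 6 min, 2 lower at 9 min, 2 at 24 min, 17 at 90 min, 1 for the mean over times, 0 from early to late in WT, 17 in def1Δ and 0 for the strains' difference, 1 in def1Δ input RNA, 0 for def1Δ against dhh1Δ and 1 in footprints. At an adjusted p under 0.05 they were 11 in total RNA, 16 at 9 min, 7 in dhh1Δ input RNA, 14 for def1Δ against dhh1Δ and 14 in footprints. By library totals they were 3 in total RNA, 4 at 6 min, 13 at 24 min, 2 late in WT, 2 in dhh1Δ, 2 for def1Δ against dhh1Δ and 13 in footprints. DESeq2 gave 3 in dhh1Δ, 12 for def1Δ against dhh1Δ and 10 in footprints. With the length trend removed, an alternative chosen after seeing the data, they were 10 in total RNA, 4 at 9 min, 24 for the mean and 10 in footprints. At 9 min 16 were lower with no count filter and 4 with the libraries of that time alone. The mean of 6 and 9 min alone gave 7 higher, and 6 against 90 min in WT gave 6 late.

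With the length trend removed the sign changed for RPN1 at 6 min (-0.052) and 9 min (-0.28), RPN2 at 9 min (-0.25), RPN1 (-0.29) and RPN2 (-0.12) from early to late in WT, RPN13 at 90 min (0.32), PRE7 for def1Δ against dhh1Δ (0.035), PUP1 in footprints (0.076) and PUP2 in translational efficiency (0.16). By library totals it changed for RPN13 at 90 min (0.30), PUP2 for def1Δ against dhh1Δ (-0.12), PUP1 in footprints (0.12) and PUP2 in efficiency (0.22). The efficiency of PUP2 was also above 0 with DESeq2 size factors (0.10), the DESeq2 test (0.11), a minimum of 10 counts in every library (0.093) and separate scaling (0.048).

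With each library left out in turn, the counts in the leading direction ranged from 0 to 12 in total RNA, 2 to 8 at 6 min, 8 to 16 at 9 min, 4 to 8 at 24 min, 27 to 32 at 90 min, 13 to 18 for the mean, 14 to 19 late in WT, 30 to 31 in def1Δ, 22 to 31 for the strains' difference, 11 to 17 in def1Δ input RNA, 0 to 2 in dhh1Δ, 1 to 10 between the mutants, 4 to 7 in footprints and 0 to 0 in efficiency. Values that crossed 0 were those of RPN13 at 90 min (-0.19 to 0.073), RPN13 (-0.17 to 0.0014) and RPN8 (-0.0031 to 0.25) in def1Δ input RNA, PRE7 (-0.11 to 0.071) and PUP2 (-0.10 to 0.11) between the mutants, PUP3 in footprints (-0.020 to 0.089), and RPN4 (-0.0083 to 0.40), PUP2 (-0.11 to 0.15 over input libraries, to 0.16 over footprint columns) and RPN8 (-0.012 over input libraries and -0.0046 over footprint columns, to 0.24) in efficiency.

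Deviations of same-numbered libraries from their group means had correlations of -0.04 in total RNA and -0.01 to 0.13 in labeled RNA. In input RNA they were 0.16 to 0.34 for replicates 1 and 3 and -0.16 to 0.047 for replicate 2, so not every pair deviated together and the numbers were not taken to pair the libraries. With the replicate number as a block 7 members were higher in total RNA, 31 at 90 min, 17 in def1Δ input RNA and 7 in def1Δ against dhh1Δ, 30 were lower for the strains' difference, and 5 were higher early in WT in place of 3. RPN4 passed in total RNA with the block (0.66, adjusted p = 0.0028), as did PRE3 at 90 min (0.37, adjusted p = 0.00772) and RPN1 in def1Δ against dhh1Δ (0.71, adjusted p = 0.00713), and no other named call changed.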
